A study of Mus musculus with 6 samples.

Results

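The colony-stimulating factor genes Csf1, Csf2 and Csf3 were followed in cultured primary fibroblasts, the stromal cells that grow when an embryo's tissue is put into culture, from mouse embryos. The cells had been heat shocked before lipopolysaccharide (LPS), given LPS alone or left untreated. The members were all probe sets of the array that are annotated with exactly 1 gene symbol, that symbol being Csf1, Csf2 or Csf3. This gave 6 probe sets for 3 genes, out of 45101 probe sets and 18194 genes with a probe set of their own. Csf1 had 4 probe sets, and its brightest, 1460220_a_at, is the value used unless another is named. Csf2 (1427429_at) and Csf3 (1419427_at) had a single probe set each. All 3 genes passed the filter on dim probe sets and were among the 12917 genes tested.

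At embryonic day 15.5, 2 embryos of ICR mice, an outbred stock, gave 1 culture each. All groups were grown at 37 °C in medium with serum. HS+LPS cells had 1 h of heat shock at 42 °C before the LPS treatment, LPS cells had 1 μg/ml of LPS from Escherichia coli for 4 h with no heat shock, and Control cells had neither. Each group was measured in culture 1 and culture 2, which makes 6 arrays; no group with heat shock alone was analysed here, so a difference between HS+LPS and LPS holds the effect of heat together with its interplay with LPS.

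Colony-stimulating factors are secreted proteins named for their ability to make bone marrow progenitors form colonies of white blood cells in culture. Csf1 (macrophage colony-stimulating factor, M-CSF) is made constitutively by fibroblasts and other stromal cells and maintains monocytes and macrophages through the receptor tyrosine kinase encoded by Csf1r. Csf2 (granulocyte-macrophage colony-stimulating factor, GM-CSF) acts on granulocytes and macrophages through a receptor built from the Csf2ra and Csf2rb products, and Csf3 (granulocyte colony-stimulating factor, G-CSF) drives neutrophil production through the Csf3r product. In fibroblasts Csf2 and Csf3 are inducible genes, switched on by bacterial products, interleukin-1 and tumour necrosis factor, and their mRNAs carry AU-rich elements that shorten their life.

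Signals are scaled linear intensities, 1 per probe set and array. A signal was called above noise where it exceeded the brightest of 27 probe sets for Bacillus subtilis genes on the same array, a level of 6.0 to 7.67. Array medians lay between 11.9 and 14.4. All 10 fibroblast markers were above noise on all 6 arrays, with summed signals of 33160 to 35600 in HS+LPS, 32980 to 33730 in LPS and 31390 to 39450 in Control. Of 13 macrophage and granulocyte markers with a probe set, 3 (Itgam, Aif1 and Fcgr1) were at or under noise on every array, and the list summed to 261 to 391, 259 to 449.7 and 258 to 480.1 in HS+LPS, LPS and Control. The higher sum was that of culture 1 in each group. Lyz2, Csf1r, Cd68, Adgre1, Laptm5 and Spi1 were above noise on all 6 arrays, with Lyz2 the brightest at 89.8 to 220. Fibroblast markers called lower in HS+LPS than in LPS numbered 1 without the culture as a block in the model (Pdgfrb, -0.81 on the log2 scale) and 2 with it (also Pdgfra, -0.96, blocked limma adjusted p = 0.0073). The median over the 10 fibroblast markers was 0.10 higher in HS+LPS than in LPS, and none was called higher in either fit. The 6 epithelial markers summed to 89.3 and 126 in HS+LPS cultures 1 and 2, 52.2 and 96.3 in LPS, and 54.3 and 61.3 in Control. Of 4 tested, 0 passed without the block and 1 with it, Krt18 (1.25 higher in HS+LPS than in LPS, blocked limma adjusted p = 0.0464). The others tested did not move together: Krt8 was 1.11 higher, Epcam 0.10 higher and Krt5 1.03 lower in HS+LPS than in LPS. The part of these marker differences in the CSF differences was not tested. In bulk RNA, more cells making a transcript and more transcript per cell cannot be told apart.

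Csf1 was expressed on every array and was higher in LPS cultures than in both other groups. It read 1612 and 1078 in HS+LPS cultures 1 and 2, 2725 and 1672 in LPS cultures 1 and 2, and 1380.3 and 798 in Control cultures 1 and 2. Culture 1 was the higher of the pair in each group, and within each culture the order was LPS, HS+LPS, Control. The means were 1345 ± 378 in HS+LPS, 2198 ± 745 in LPS and 1089 ± 412 in Control (SD, n = 2 each), so that the spread between the cultures was of the size of the differences between the groups.

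**Figure D1:**
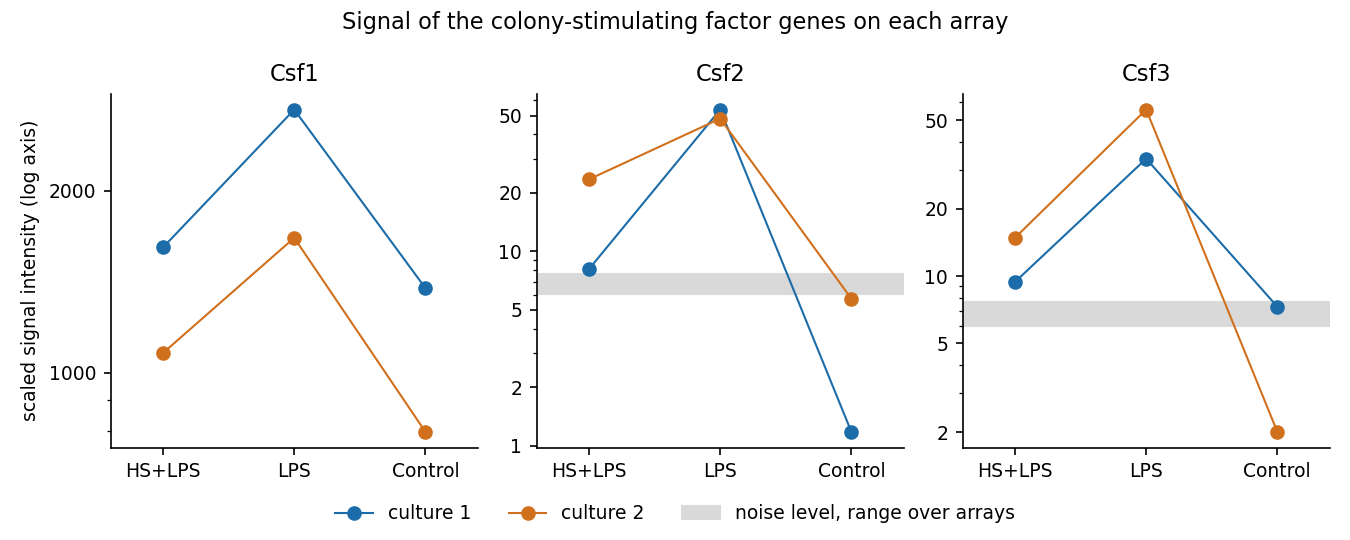
Signal of Csf1, Csf2 and Csf3 (main probe set of each) on every array, on log axes; lines join the arrays of 1 culture and the grey band is the range of the noise level over the arrays. In both cultures each gene was highest in LPS, and the Control signals of Csf2 and Csf3 lie at or under the noise level of their own arrays.

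With LPS, Csf1 was 2.03-fold the Control level (log2 difference 1.02, SE 0.36, 95% interval 0.14 to 1.90). The limma fit without a block, which counts the gap between the cultures as error, gave an adjusted p of 0.886. With the culture as a block the same difference had an SE of 0.077 and passed (limma adjusted p = 0.000209). Within the cultures the log2 difference was 0.98 in culture 1 and 1.06 in culture 2.

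After heat shock and LPS, Csf1 was 1.62-fold lower than with LPS alone (log2 difference -0.69, SE 0.36, 95% interval -1.58 to 0.19). It did not pass without the block (limma adjusted p = 0.404) and fell with it (adjusted p = 0.00063). The difference was -0.76 in culture 1 and -0.63 in culture 2. The highest HS+LPS signal, 1612, lay just under the lowest LPS signal, 1672. With 2 arrays a group, unchanged genes can also separate in this way, and the share of all genes doing so was not counted.

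HS+LPS against Control left a small difference in Csf1, and the groups overlapped. The log2 difference was 0.33 (SE 0.36; limma adjusted p = 0.755, and 0.0218 with the culture as a block), 0.22 in culture 1 and 0.43 in culture 2. The blocked call was lost without the HS+LPS array of culture 2 (0.24, adjusted p = 0.187) or the Control array of culture 2 (0.25, 0.169). Without Control culture 2 the fit with no block gave -0.066. Set against the increase with LPS in the same culture, the HS+LPS signal kept 17.2% of it in culture 1 and 32.0% in culture 2. Of 263 other genes that rose with LPS in the blocked fit, the median share kept was -0.53% in culture 1 (quartiles -12.9% and 26.0%) and 0.0998% in culture 2 (quartiles -14.7% and 36.6%). The other Csf1 probe sets kept 9.23% in culture 1 and 24.8% in culture 2 (1448914_a_at), -5.23% and 11.1% (1425154_a_at), and 47.4% and 29.8% (1425155_x_at). Of these shares and those of the main probe set, only the 47.4% of culture 1 lay outside the quartiles. Csf2 kept 13.2% in culture 1 and 41.8% in culture 2, and Csf3 8.09% and 24%, with Control signals of both genes under noise. Of these, only the 41.8% of Csf2 lay outside the quartiles.

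In the other 3 Csf1 probe sets LPS was likewise the highest group in both cultures, and in culture 2 HS+LPS lay between LPS and Control in each. 1448914_a_at read 695 and 454 in HS+LPS, 1445 and 824 in LPS, and 619 and 333 in Control. 1425154_a_at read 420.5 and 234 in HS+LPS, 927 and 508 in LPS, and 446 and 200.3 in Control, and it was the one in which HS+LPS lay under Control in culture 1. 1425155_x_at, of a type open to cross-hybridisation with other transcripts, read 490.3 and 209 in HS+LPS, 599 and 316 in LPS, and 392 and 164 in Control. Its HS+LPS and LPS signals overlapped between the cultures.

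The size of the Csf1 change depended on the probe set. Log2 differences of LPS minus Control were 1.26, 1.19 and 0.77 in 1448914_a_at, 1425154_a_at and 1425155_x_at, with limma adjusted p of 0.00013, 0.000315 and 0.00526 with the culture as a block, over all probe sets above the filter. Those of HS+LPS minus LPS were -0.95, -1.12 and -0.44, with blocked adjusted p of 0.000267, 0.000214 and 0.0271. For HS+LPS minus Control they were 0.31, 0.07 and 0.33 and did not pass in any of the 3 (blocked adjusted p of 0.0589, 0.715 and 0.0749). None of the 4 probe sets passed in any comparison without the block.

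**Figure D2:**
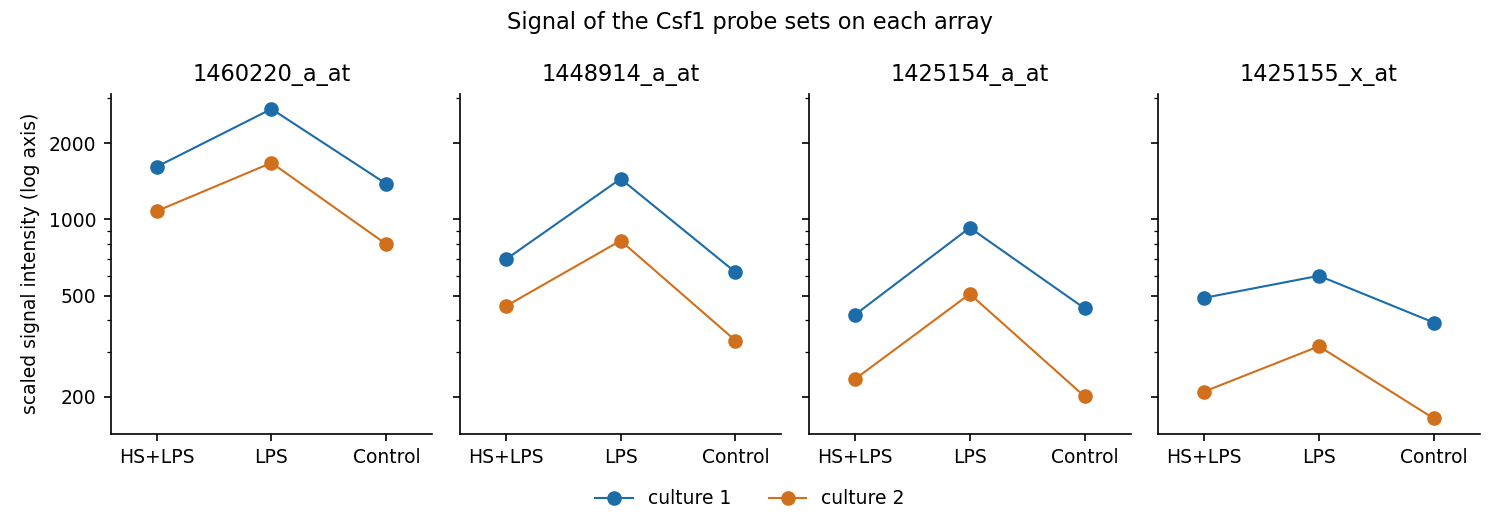
Signal of the 4 Csf1 probe sets on every array, on a shared log axis, brightest probe set on the left; lines join the arrays of 1 culture. Culture 1 lies above culture 2 in every group and probe set, and LPS is the highest group in each culture.

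The gap between the cultures was a steady feature of Csf1. In 1460220_a_at culture 1 was 1.5 times culture 2 in HS+LPS, 1.63 times in LPS and 1.73 times in Control, and over the other probe sets the ratios ran from 1.53 to 2.39. Averaged over the groups the gap was 0.69 on the log2 scale, and 9.57% of the 12917 genes tested had a larger one in either direction. Each culture is 1 embryo, so the gap has no replicate and was not tested. The summed macrophage and granulocyte markers were also higher in culture 1 in each group. Of the fibroblast markers, Col1a1, Col3a1, Pdgfra, Thy1 and Dcn were lower in culture 1 in each group, and Fn1 and S100a4 were higher. Dcn read 343 and 1652.5 in HS+LPS, 543 and 1854 in LPS, and 333 and 1862 in Control. The part of any of these markers in the gap was not tested.

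Csf1, Csf2 and Csf3 moved the same way, but a promoter sequence was at hand for Csf1 and Csf2 only. NF-kB, which LPS switches on, is known to act through short DNA sites near Csf1 and Csf2. The stretches of 250 bases that end just before the annotated starts of these genes are shown. They are taken from RefSeq on GRCm38.p6, Csf1 from the minus strand at chr3:107760470-107760719 and Csf2 from the minus strand at chr11:54249900-54250149. Each is printed 5′ to 3′ in the direction of the gene, and capitals mark a match to any motif searched.
Csf1: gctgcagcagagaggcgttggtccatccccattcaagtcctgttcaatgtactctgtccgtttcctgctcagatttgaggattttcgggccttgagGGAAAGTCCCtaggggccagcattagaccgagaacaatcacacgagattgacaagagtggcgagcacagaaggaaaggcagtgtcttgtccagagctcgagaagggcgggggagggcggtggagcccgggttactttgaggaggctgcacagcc
Csf2: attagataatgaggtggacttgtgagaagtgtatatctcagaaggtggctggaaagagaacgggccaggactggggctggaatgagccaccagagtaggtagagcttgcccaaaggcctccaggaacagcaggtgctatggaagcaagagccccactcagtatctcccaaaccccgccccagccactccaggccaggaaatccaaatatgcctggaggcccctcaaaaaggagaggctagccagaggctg

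Motifs were searched on both strands: the kappa B motif, the CK-1 element, TGANTCA for AP-1, TGACGTCA for the cAMP response element, GAANNTTC for the core of a heat shock element and TATAAA for the TATA box. The Csf1 stretch held 1 match, the kappa B motif on the opposite strand, at 154 to 145 bases before the start, where the printed strand reads GGAAAGTCCC. Among 32851 promoter windows of the same length 0.98% held a kappa B match, against 6.75% for AP-1, 6.69% for the heat shock core, 12.4% for TATAAA, 1.55% for the cAMP response element and 0.0365% for CK-1. The Csf2 stretch held none of the 6 motifs, but the RefSeq start used for it may lie upstream of the start usually studied, so the stretch may not include the usual Csf2 promoter. A match is a description of the letters and shows no binding.

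Csf2 was above noise in HS+LPS and LPS and not in Control. It read 8.12 and 23.5 in HS+LPS cultures 1 and 2, 53.7 and 48.2 in LPS cultures 1 and 2, and 1.18 and 5.72 in Control cultures 1 and 2. LPS was highest in both cultures, and both Control cultures were under the noise level. The HS+LPS signal of culture 1 was barely above the noise level of its array, 7.67.

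Since Control was at noise, the increase of Csf2 with LPS is a bound, at least 5.27-fold against the noise level. The fitted log2 difference of LPS minus Control was 3.08 (SE 0.52, 95% interval 1.80 to 4.35), which did not pass without the block (limma adjusted p = 0.196) and rose with it (adjusted p = 0.00308). It was 3.65 in culture 1 and 2.51 in culture 2. The blocked call was lost without the LPS array of culture 1 (2.45, adjusted p = 0.0507).

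With prior heat shock Csf2 was 3.09-fold lower than with LPS alone (log2 difference -1.63, SE 0.52, 95% interval -2.90 to -0.35). It did not pass without the block (limma adjusted p = 0.206), but fell in the blocked fit (adjusted p = 0.0202). The fall was unequal, with log2 differences of -2.31 in culture 1 and -0.94 in culture 2. With the block and without the LPS array of culture 1 the difference was -1.0 and did not pass (adjusted p = 0.225), and without the HS+LPS array of culture 1 it was -1.23 (adjusted p = 0.0609). HS+LPS remained at least 1.71-fold above the noise level of the Control arrays, with a fitted log2 difference of 1.45 from Control (limma adjusted p = 0.253, and 0.0335 with the block). That blocked call was lost without the HS+LPS array of culture 2 (adjusted p = 0.189), the Control array of culture 1 (0.152) or that of culture 2 (0.0981), with a pseudocount of 16 (0.0602) and with no filter (0.0743).

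Csf3 behaved like Csf2 in its order of groups. It read 9.43 and 14.9 in HS+LPS cultures 1 and 2, 33.6 and 55.7 in LPS cultures 1 and 2, and 7.31 and 2.01 in Control cultures 1 and 2. LPS was highest in both cultures, and both Control signals were under the noise level of their arrays. HS+LPS and Control of culture 1 lay close together. The means were 12.2 ± 3.85 in HS+LPS, 44.6 ± 15.7 in LPS and 4.66 ± 3.75 in Control (SD, n = 2 each).

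The increase of Csf3 with LPS was at least 4.53-fold against the noise level. The fitted log2 difference of LPS minus Control was 2.62 (SE 0.45, 95% interval 1.51 to 3.73), with a limma adjusted p of 0.20 without the block and 0.0136 with it. It was 1.79 in culture 1 and 3.46 in culture 2, where LPS read higher. Control also read lower there, but both Control signals were under noise, so that part of the gap is not a measured difference. Without the LPS array of culture 2 the blocked fit gave 2.17 and did not pass (adjusted p = 0.172), nor did it without the Control array of culture 2 (1.83, adjusted p = 0.0649).

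Csf3 was 3.06-fold lower in HS+LPS than in LPS (log2 difference -1.61, SE 0.45, 95% interval -2.72 to -0.50). This missed the threshold without the block (limma adjusted p = 0.167) and passed with it (adjusted p = 0.0326). The cultures were close, at -1.53 in culture 1 and -1.70 in culture 2. The blocked call was lost without the LPS array of culture 1 (-2.07, adjusted p = 0.0546), the LPS array of culture 2 (-1.15, 0.303) or the HS+LPS array of culture 1 (-1.28, 0.0807), and with a pseudocount of 1 (-1.78, 0.0591). Against Control, HS+LPS was at least 1.48-fold above noise, with a fitted log2 difference of 1.01 that did not pass in either fit (limma adjusted p = 0.35, and 0.146 with the block; 0.26 in culture 1 and 1.76 in culture 2). In the blocked fit without Control culture 1 it was 1.80 and passed (adjusted p = 0.0326).

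**Figure D3:**
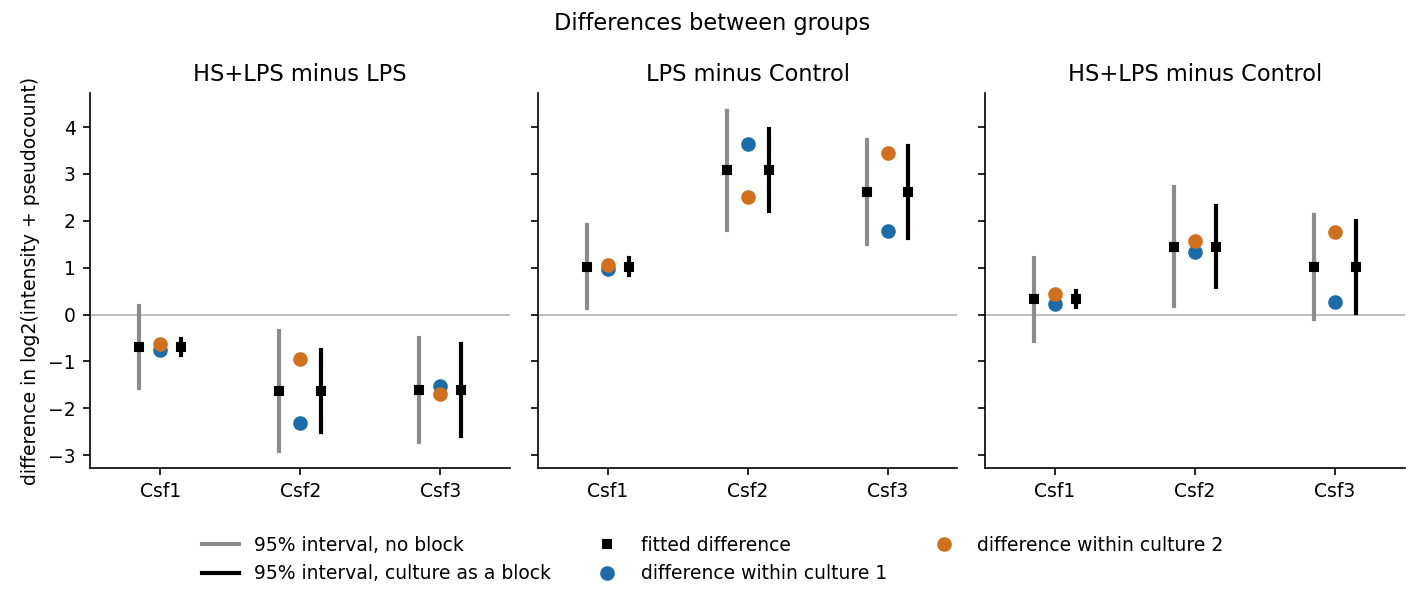
Log2 differences of HS+LPS minus LPS, LPS minus Control and HS+LPS minus Control for Csf1, Csf2 and Csf3; bars are 95% intervals from limma without a block (grey) and with the culture as a block (black), squares the fitted differences and circles the differences within each culture. All circles lie below 0 in the first panel and above 0 in the other panels, and the block narrowed the Csf1 interval most, its SE being 0.077 in place of 0.36.

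Counted together, 3 of 3 genes passed as lower in HS+LPS than in LPS in the blocked limma fit, in which 12.6% of all genes tested were called lower. Without the block 0 of 3 passed, against 0.828% of all genes called lower; Csf2 and Csf3 had unadjusted p of 0.0207 and 0.012, and Csf1 0.103. The median log2 difference of the 3 genes was -1.61, and that of all genes -0.05. Calls in the other direction made up 6.32% of all genes with the block and 0.511% without it, where 66 genes were higher and 107 lower (83 and 78 after median centring). Among the 12917 genes ranked by their decrease, Csf2 stood at place 109, Csf3 at 115 and Csf1 at 1110.

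For LPS against Control the count was likewise 3 of 3 higher with the block, where 2.06% of all genes were called higher, and 0 of 3 without it, where 0.147% were. The unadjusted p without the block were 0.0298 for Csf1, 0.00106 for Csf2 and 0.00117 for Csf3. With Csf2 and Csf3 at their bounds, the median log2 difference of the 3 genes was at least 2.18, and that of all genes was -0.05. No gene was called lower without the block (0%), and 0.72% were with it. Csf1 stood at place 215 among all genes ranked by their increase; Csf2 and Csf3 are not ranked because Control was at noise. For HS+LPS against Control, Csf1 and Csf2 were higher with the block, where 5.09% of genes were called higher, and 0 of 3 passed without it, where 0.17% were (12.1% and 0.00774% were called lower; unadjusted p of 0.398, 0.032 and 0.0671 for Csf1, Csf2 and Csf3). This comparison shares its arrays with the other comparisons, so the 3 sets of differences are not independent. All 8 blocked calls over the 3 comparisons were lost when limma was run with no intensity trend (adjusted p of 0.0566 to 0.21).

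Of the receptor genes for these factors, Csf1r and Csf2ra were above noise throughout and the others mostly were not. Csf1r read 72.6 and 46.9 in HS+LPS, 79.3 and 43.2 in LPS, and 97.5 and 47.5 in Control, above noise on all 6 arrays and higher in culture 1 in each group. Csf2ra, the ligand-binding chain for GM-CSF, read 51.2 and 49.7 in HS+LPS, 62.2 and 36.8 in LPS, and 57.8 and 38.6 in Control. Neither passed in any comparison (limma adjusted p of 0.892 or more without the block and 0.437 or more with it). Csf2rb, the signalling chain shared with the receptors for interleukin-3 and interleukin-5, was above noise on 0 of 6 arrays. Its close paralogue Csf2rb2, whose transcripts the probes may not separate from those of Csf2rb, was above noise on 2 of 6, and Csf3r on 1 of 6. Csf2rb, Csf2rb2 and Csf3r were removed by the filter on dim probe sets and not tested.

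Of 19 genes on a list of receptors and their signalling, 14 were tested. In HS+LPS against LPS 1 passed as higher and 0 as lower (with the block 2 and 2), in LPS against Control 0 passed (with the block 2 higher), and in HS+LPS against Control 0 passed (with the block 1 higher and 1 lower). The medians were -0.02, 0.04 and 0.05 on the log2 scale. Cish, a feedback inhibitor induced by STAT5 downstream of the GM-CSF receptor, read 233 and 270.0 in HS+LPS, 97.7 and 74.3 in LPS, and 84.3 and 80.0 in Control. It rose 2.87-fold in HS+LPS against LPS (log2 difference 1.52, SE 0.19, limma adjusted p = 0.0296), and its 2 HS+LPS arrays stood above the other 4.

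Jak2 and Stat5a, a kinase and a transcription factor through which GM-CSF signals, were highest in LPS in both cultures, as the ligands were, and passed only with the block. Unlike the ligands, they did not stand above Control in HS+LPS in both cultures. Jak2 read 149 and 161 in HS+LPS, 289 and 349 in LPS, and 132 and 162 in Control (blocked limma adjusted p of 0.00042 for HS+LPS against LPS and 0.000746 for LPS against Control). Stat5a read 47.0 and 70.0 in HS+LPS, 107 and 125 in LPS, and 53.4 and 69.6 in Control (blocked adjusted p of 0.0037 and 0.0171). Stat5b, on the same list, did not share this pattern and passed in no comparison in either fit. Its signals were 81.2 and 74.3 in HS+LPS, 76.0 and 77.4 in LPS, and 78.5 and 74.5 in Control. Socs3, a feedback inhibitor of G-CSF signalling, was instead higher in HS+LPS than in LPS, at 499.7 and 932 in HS+LPS, 220.3 and 693 in LPS, and 363 and 801 in Control (HS+LPS minus LPS 0.80 on the log2 scale, limma adjusted p = 0.598, and 0.00812 with the block).

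**Figure D4:**
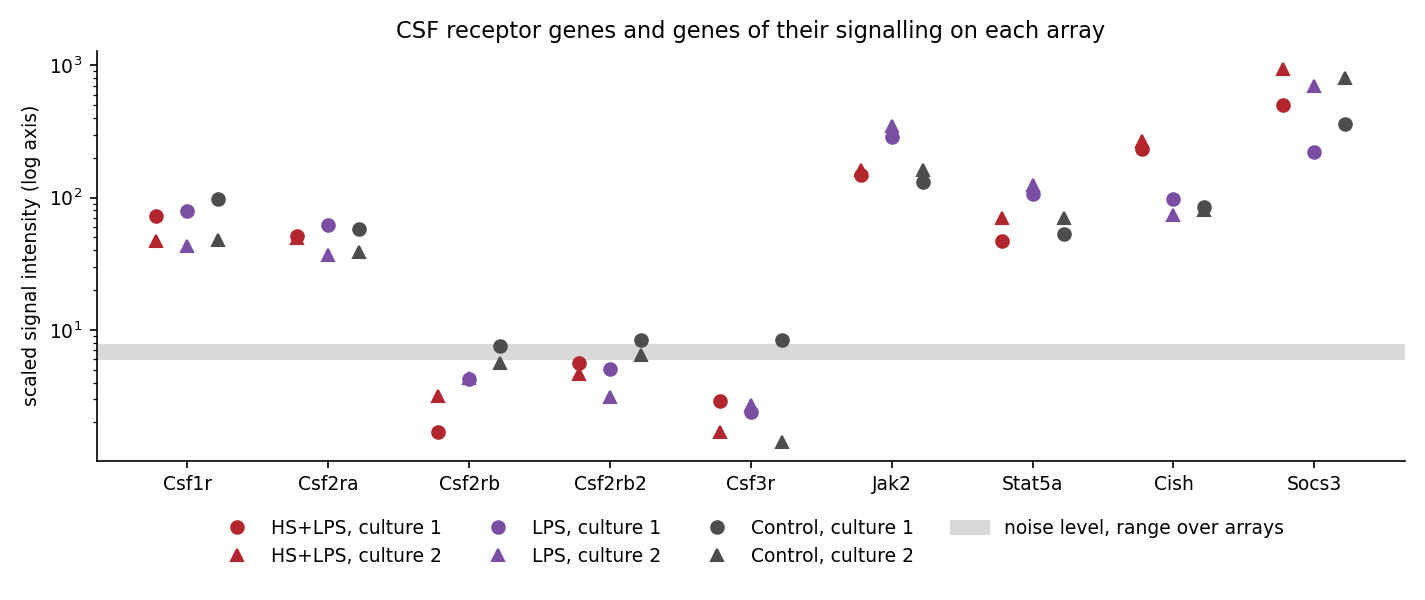
Signal of the CSF receptor genes and of Jak2, Stat5a, Cish and Socs3 on every array, on a log axis, with HS+LPS, LPS and Control from left to right for each gene and the range of the noise level in grey. Csf2rb, Csf2rb2 and Csf3r lie in or under the noise band apart from Control arrays of Csf2rb2 and Csf3r, Jak2 and Stat5a peak in LPS, and Cish is highest in HS+LPS. Levels of different genes are not comparable on this axis.

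Other growth factors and cytokines of blood cells did not share 1 pattern. Of 14 on the list, 9 were tested and 0 passed in any comparison without the block. With it, 2 were higher and 1 lower in HS+LPS against LPS, 3 higher and 1 lower in LPS against Control, and 3 higher in HS+LPS against Control, with list medians of -0.05, 0.53 and 0.04. Il11, which supports megakaryocytes and stromal cells, read 527 and 344 in HS+LPS, 74.4 and 25.8 in LPS, and 49.8 and 17.2 in Control (HS+LPS against LPS 3.17 on the log2 scale, adjusted p = 0.0823, and 3.75e-05 with the block). Its HS+LPS cultures were far above the rest, unlike those of the colony-stimulating factors.

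Lif and Il6, cytokines of the same receptor family as Il11, were higher in HS+LPS than in Control with the block (blocked limma adjusted p of 6.12e-05 and 0.00322) and not without it (0.123 and 0.15). Lif, which acts on stem and stromal cells, read 599 and 367 in HS+LPS, 607 and 185 in LPS, and 89.3 and 35.5 in Control; HS+LPS against LPS did not pass in either fit (blocked limma adjusted p = 0.12). Il6 read 714 and 816 in HS+LPS, 1832 and 930.5 in LPS, and 271 and 72.3 in Control, and it too did not pass for HS+LPS against LPS (blocked adjusted p = 0.166), while LPS against Control passed with the block (0.00173). Il34, the other known ligand of the Csf1r receptor and singled out after its values were seen, read 15.8 and 13.8 in HS+LPS, 36.7 and 38.4 in LPS, and 24.2 and 20.3 in Control. It was lower in HS+LPS than in LPS with the block (log2 difference -1.17, limma adjusted p = 0.0848 without the block and 0.0127 with it). Kitl, which encodes stem cell factor and was likewise singled out after its values were seen, ran the other way. It read 238 and 277 in HS+LPS, 109.5 and 191 in LPS, and 200.5 and 309 in Control (HS+LPS minus LPS 0.81, limma adjusted p = 0.283, and 0.00524 with the block; LPS minus Control -0.77, 0.999, and 0.0214 with the block).

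Upstream of the CSF genes, 17 of 21 genes of LPS sensing and NF-kB signalling were tested. In HS+LPS against LPS 2 fell and 0 rose (with the block 6 and 0, median -0.20). In LPS against Control 0 passed (with the block 5 rose, median 0.34), and in HS+LPS against Control 0 passed (with the block 3 rose and 2 fell, median 0.18). The 2 that fell were Cd14, which hands LPS to its receptor, and Relb, an NF-kB subunit. Cd14 read 35.0 and 34.9 in HS+LPS, against 118 and 93.2 in LPS and 58.0 and 64.2 in Control (HS+LPS minus LPS -1.50, SE 0.19, limma adjusted p = 0.0306). Relb read 79.9 and 80.9 in HS+LPS, against 203 and 164 in LPS and 64.5 and 74.8 in Control (-1.15, SE 0.18, adjusted p = 0.0494).

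Nfkb2, Lbp and Nfkbia passed only with the block. Nfkb2, which encodes the p100 and p52 NF-kB proteins, read 95.04 and 42.4 in HS+LPS, 294 and 229.6 in LPS, and 77.5 and 86.0 in Control (HS+LPS minus LPS -1.97, adjusted p = 0.073, and 0.00109 with the block). Lbp, the LPS-binding protein, read 62.7 and 94.1 in HS+LPS, 149 and 188 in LPS, and 61.4 and 74.2 in Control. Nfkbia, the inhibitor IkB-alpha and a target of NF-kB, read 2402 and 2924 in HS+LPS, 3228 and 3245 in LPS, and 1271 and 1587 in Control. The HS+LPS minus LPS difference of Nfkbia, -0.29, did not pass in either fit (limma adjusted p = 0.409, and 0.0521 with the block).

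Of 21 transcription factors and RNA-binding proteins known to act on CSF genes or mRNAs, 20 were tested. In HS+LPS against LPS 2 rose and 0 fell (with the block 7 and 1, median 0.31). In LPS against Control 1 rose (with the block 5, median 0.18), and in HS+LPS against Control 3 rose (with the block 13, median 0.56). Atf3, a stress-induced repressor of inflammatory genes, read 2071 and 2093 in HS+LPS, 22.3 and 34.7 in LPS, and 25.8 and 31.7 in Control. Junb, an AP-1 subunit, read 611 and 773 in HS+LPS, 234 and 204 in LPS, and 148 and 162 in Control (3.12-fold over LPS, limma adjusted p = 0.0199). The gene of the RNase Regnase-1, Zc3h12a, whose product breaks down mRNAs of cytokines, read 322 and 365 in HS+LPS, 411 and 364 in LPS, and 46.3 and 47.4 in Control. It rose with LPS and its difference between HS+LPS and LPS, -0.17, did not pass (adjusted p = 0.618).

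Zfp36, which binds AU-rich elements of CSF mRNAs and speeds their decay, read 226 and 372 in HS+LPS, 100.3 and 139 in LPS, and 122 and 149 in Control. Both HS+LPS arrays were above the other 4 (HS+LPS minus LPS 1.27, limma adjusted p = 0.109, and 0.000376 with the block). The AP-1 genes Fos and Jun were also higher in HS+LPS with the block only. Fos read 408 and 951 in HS+LPS, 81.9 and 163 in LPS, and 149 and 223 in Control, and Jun 857 and 1342 in HS+LPS, 465 and 651 in LPS, and 427 and 552 in Control. The part of any of these genes in the CSF differences was not tested.

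The chromosomal neighbours of the members, nearby protein-coding genes in the RefSeq table of GRCm38.p6, were not tested as a group, and 0 of them passed in a limma fit without the block (lowest adjusted p = 0.0891, for Pdlim4). Csf2 lies between P4ha2 and Il3. Il3, a related growth factor of the same cytokine cluster, was above noise on 0 of 6 arrays, LPS included. P4ha2, a collagen-modifying enzyme, read 724 and 689.6 in HS+LPS, 928 and 934 in LPS, and 726 and 738 in Control (HS+LPS minus LPS -0.40, limma adjusted p = 0.134, and 0.00829 with the block). Pdlim4, a cytoskeletal adaptor one gene further, was highest in LPS in both cultures, as Csf2 was, but not higher in HS+LPS than in Control, at 281 and 211 in HS+LPS, 636 and 517 in LPS, and 328 and 220.2 in Control (HS+LPS minus LPS -1.22, adjusted p = 0.0891, and 0.000111 with the block). Acsl6 was removed by the filter.

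Beside Csf1, Ahcyl1 and Gstm5 did not pass in any comparison with or without the block, and Eps8l3 was removed by the filter. Beside Csf3, Psmd3 and Thra did not pass in either fit, Gsdma was removed by the filter, and Med24, a Mediator subunit, was lower in HS+LPS, at 58.9 and 67.7, than in LPS, at 92.1 and 96.0, and in Control, at 90.0 and 96.2 (HS+LPS minus LPS -0.55, limma adjusted p = 0.18, and 0.0263 with the block). Unlike Csf3, Med24 had LPS signals close to those of Control.

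Likeness of pattern was measured as Pearson's r of log2 signal over the 6 arrays, which come from only 3 groups and 2 cultures, and is a description with no test. The profile of Csf1 was most like those of Itga2, an integrin collagen receptor chain (0.998), Pcdh1, a protocadherin (0.991), and Clca3a2 (0.987); 38 genes were above 0.95. Itga2 read 22.5 and 11.7 in HS+LPS, 42.4 and 22.9 in LPS, and 18.0 and 7.05 in Control, with culture 1 above culture 2 in each group as for Csf1. Csf2 was most like Cxcl1, a neutrophil-attracting chemokine (0.985), Stx11, a syntaxin of secretory traffic (0.985), and Zfp777, a zinc finger gene (0.978), with 21 genes above 0.95. Cxcl1 read 767 and 1361 in HS+LPS, 3690 and 3646 in LPS, and 208 and 702.5 in Control. Csf3 was most like Ube2l6, the conjugating enzyme of ISG15 (0.984), Pak4, a kinase (0.982), and Atg2a, an autophagy gene (0.981), with 16 above 0.95. Pearson's r takes no account of the size of a change. Pak4 differed little between groups, at 124 and 126 in HS+LPS, 134 and 138 in LPS, and 126 and 118 in Control. Among the members r was 0.858 for Csf2 with Csf3, 0.73 for Csf1 with Csf3 and 0.559 for Csf1 with Csf2.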

How the data were processed

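Biotin-labelled cRNA was hybridised to 1-colour Affymetrix mouse genome arrays, per the labels' protocols. The deposited values are linear signal intensities; their software, version and normalization are not given in the sources used here. The mean after trimming 2% at each end was 100.001 on each array, so total mRNA cannot be compared. Signals were used as deposited (array medians differed up to 1.21-fold) and put on a log2(intensity + 3.37) scale, the added 3.37 being the 25th percentile over all arrays, so fold changes of dim genes are understated. Symbols came from the platform annotation. Array control probe sets, and those whose mean log2 signal lay below the 40th percentile, were dropped; each gene was its brightest probe set with 1 symbol. All 6 arrays entered 1 linear model (limma 3.58.1, R 4.3.3, functions lmFit and eBayes, variance trend on intensity, 3 residual degrees of freedom, 1 fewer with the culture as a block). The check on simulated data used independent arrays and the fit with no block. Calls were at a Benjamini-Hochberg adjusted p under 0.05 over 12917 genes. Replicate numbers pair the arrays: a number stands for 1 embryo, per the labels, and deviations from group means correlated at 0.535 to 0.622 within a culture. The protocols name no block, so the culture is a block in an alternative fit, given beside each result. P-values rest on 2 cultures per group. "At least" folds set the brighter group against the higher of signal and noise level on each array of the dimmer one.

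Members and gene lists were chosen with earlier results of these data known; the neighbours and the alternatives to the blocked fit were added after seeing the data. Named genes were the members and receptors, list genes that passed without the block, up to 3 a list that passed only with it (lowest adjusted p), and the 3 genes most correlated with each member. Il34, Kitl, Stat5b, the cell type markers other than Csf1r and the chromosomal neighbours fall outside this rule and were named after their values were seen. Of 7 lymphocyte and mast cell markers with a probe set, 4 were under noise on every array and 0 were above the filter, so none was tested. Endothelial markers (2 of 7 under noise on every array) were checked as well, and 0 of the 4 tested passed in limma, with or without the block. Of 6 epithelial markers 1 was under noise on every array.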

Additional observations from a re-analysis of the deposited data

How the results depend on the processing

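Alternatives were pseudocounts of 1 and 16, no filter or one at the 60th percentile, quantile normalization, median centring, no intensity trend, only the groups compared, the mean of all probe sets or another Csf1 probe set, the culture as a block, and each array left out. The differences of Csf1, Csf2 and Csf3 kept their direction in all of them, except that of Csf1 for HS+LPS against Control, which ran from -0.066 without Control culture 2 to 0.72 without Control culture 1 in the fit with no block. The filter at the 60th percentile left Csf2 and Csf3 untested.

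Without a block 0 of the 9 differences passed in limma, under these settings either. With the replicate number as a block, 8 of 9 passed at the same values: -0.69, -1.63 and -1.61 for Csf1, Csf2 and Csf3 in HS+LPS against LPS, 1.02, 3.08 and 2.62 in LPS against Control, and 0.33 and 1.45 for Csf1 and Csf2 in HS+LPS against Control. All 8 blocked calls were lost with no intensity trend, at unchanged differences and adjusted p of 0.0566 to 0.21. For Csf3 in HS+LPS against LPS the blocked call was also lost with a pseudocount of 1 (-1.78) and with no filter (-1.61). The blocked call for HS+LPS against Control of Csf1 was lost with quantile normalization (0.23), the mean of probe sets (0.26) and the other probe sets (0.31, 0.070 and 0.33), and that of Csf2 with a pseudocount of 16 (0.68) and with no filter (1.45). The cause of these losses was not tested.

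Leaving out 1 array in the blocked fit gave -0.78 to -0.61 for Csf1, -2.25 to -1.0 for Csf2 and -2.07 to -1.15 for Csf3 in HS+LPS against LPS, where calls of Csf2 were lost at -1.23 and -1.0 and of Csf3 at -1.28, -2.07 and -1.15. In LPS against Control the ranges were 0.95 to 1.09, 2.45 to 3.71 and 1.83 to 3.42; Csf2 was lost without LPS culture 1 (2.45), and Csf3 without LPS culture 2 (2.17) or Control culture 2 (1.83). For HS+LPS against Control they were 0.24 to 0.41, 1.05 to 1.85 and 0.22 to 1.80; Csf1 was lost without HS+LPS culture 2 (0.24) or Control culture 2 (0.25), and Csf2 without HS+LPS culture 2 (1.05), Control culture 1 (1.22) or Control culture 2 (1.68). Csf3 passed there without Control culture 1 (1.80).

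Genes called in HS+LPS against LPS were 173 (66 higher and 107 lower, but 83 and 78 with median centring), against 84 with no intensity trend, 76 from only those groups, 2443 with the block and 8 to 76 with 1 array left out. In LPS against Control they were 19, against 5, 0 and 359, and 0 to 4 with 1 array left out. Where limma called 0 there from only those groups, 587 genes had an unadjusted p under 0.05. That is fewer than the threshold would pass on average among 12917 unchanged genes. For HS+LPS against Control they were 23, against 58 with a pseudocount of 16, 37 with the stricter filter, 45 with median centring, 13 with no intensity trend, 14 from only those groups, 2219 with the block and 8 to 14 with 1 array left out. With 2 arrays a group and Control signals of Csf2 and Csf3 under noise, the size of their increase is known only as a bound.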
